A study of Mus musculus with 9 samples.

Results

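The olfactory epithelium of the mouse is divided into zones, and 6 genes that mark or set the dorsal and ventral zones were followed across 9 mice: Nqo1 and Acsm4 for the dorsal zone, Ncam2 for the ventral zone, and the zone factors Nfia, Nfib and Nfix. They were taken by gene symbol, and all 6 were found among the 55291 genes of the count table and passed the filter on low counts with 23225 genes in all. The question put to them was whether the dissected pieces of epithelium held the same share of dorsal and ventral tissue in every mouse, and whether that share differed between genotypes. RNA was poly-A selected and sequenced from the main olfactory epithelium of 8 to 12-week-old C57BL/6 mice: 3 wild-type littermate controls, 3 Ms4a6c knockout mice (Ms4a6c-/-) and 3 Ms4a cluster knockout mice (Ms4a cluster-/-). The Ms4a6c allele came from homologous recombination in a public knockout program and the cluster allele from a CRISPR/Cas9 deletion of the Ms4a gene array, and no cell-type-specific driver is described for either. The labels give neither sex nor which line the controls were littermates of.

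Each olfactory sensory neuron settles in a zone and picks its odorant receptor from those allowed there. Dorsal neurons carry nearly all class I receptors, most trace amine-associated receptors and a subset of class II receptors, whereas most ventral neurons carry class II receptors. Nqo1 encodes a quinone oxidoreductase that is confined to dorsal neurons, Acsm4 an olfactory acyl-CoA synthetase of the dorsal epithelium, and Ncam2 a cell adhesion molecule on the axons of ventral neurons. Nuclear factor I proteins are transcription factors that take part in choosing ventral receptors during neuronal maturation.

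To show what stands before the dorsal and ventral marker genes, the 250 bases upstream of each start site are printed for Nqo1, Acsm4 and Ncam2, from RefSeq sequence on GRCm38.p6, 5′ to 3′ on the strand of the gene. Capitals mark the nuclear factor I half-site, TTGGC on either strand. The windows lie at chr8:107403206-107403455 on the minus strand for Nqo1, at chr7:119689776-119690025 on the plus strand for Acsm4 and at chr16:81200447-81200696 on the plus strand for Ncam2.
Nqo1: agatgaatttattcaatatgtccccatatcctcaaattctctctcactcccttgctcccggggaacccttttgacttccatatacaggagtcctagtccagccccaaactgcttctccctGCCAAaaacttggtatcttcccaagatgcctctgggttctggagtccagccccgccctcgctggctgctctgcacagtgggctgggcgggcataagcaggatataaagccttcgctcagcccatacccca
Acsm4: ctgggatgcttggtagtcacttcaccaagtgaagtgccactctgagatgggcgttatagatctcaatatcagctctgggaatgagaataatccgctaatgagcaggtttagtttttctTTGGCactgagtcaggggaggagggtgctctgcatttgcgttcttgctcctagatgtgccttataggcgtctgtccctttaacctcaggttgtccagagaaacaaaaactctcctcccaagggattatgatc
Ncam2: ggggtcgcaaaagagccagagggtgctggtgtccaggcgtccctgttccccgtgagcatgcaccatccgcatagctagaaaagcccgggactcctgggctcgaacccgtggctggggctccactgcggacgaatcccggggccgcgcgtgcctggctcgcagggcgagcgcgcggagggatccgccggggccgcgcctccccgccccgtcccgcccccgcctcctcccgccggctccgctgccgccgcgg
The Nqo1 window held 1 half-site, which began 130 bases before the start, and the Acsm4 window held 1, which began 132 bases before it. No half-site stood in the Ncam2 window. Such a short motif is common, and 41.5% of 32851 promoter windows of this length held it. The core of the antioxidant response element, TGACNNNGC on either strand, stood in none of these 3 windows and in 10.2% of all windows. These matches describe letters in a window and say nothing of binding.

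Levels are given in CPM, which divide counts by a library size adjusted with trimmed means. Total expected counts ran from 13954590.87 to 21987173.72 per mouse. Ms4a6c, the targeted gene, had 53.95 to 90.34 expected counts in wild-type mice, 0 to 2.35 in Ms4a6c knockout mice and 0 in Ms4a cluster knockout mice, and all Ms4a symbols together summed to 0 in the cluster knockout. Omp, the marker of mature olfactory neurons, was at 4018 to 5215 CPM over the 9 mice. In 2 libraries, wild type 1 and Ms4a cluster knockout 2, 8 secretory nasal gland genes took 19.2% of all counts, against 1.13% to 4.69% in the other 7. These gland-rich libraries stand apart from their groups, and results that rest on them are given with and without them. Xist and Ddx3y split the mice as well: Ddx3y, which lies on the Y chromosome, was at 37.1 to 41.4 CPM in wild type 1, Ms4a6c knockout 2 and 3 and Ms4a cluster knockout 3, and at no more than 0.455 CPM in the other 5. In bulk tissue, fewer cells of a zone and less RNA per cell cannot be told apart.

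Per kilobase of exon, Acsm4 was the most abundant of the 6 genes, at 180 ± 37.6 CPM per kb (SD, n = 9), followed by Nqo1 at 86.2 ± 19.9. Nfix stood at 14.8 ± 1.27, Nfib at 7.53 ± 0.689, Ncam2 at 6.65 ± 0.443 and Nfia at 2.57 ± 0.454 CPM per kb. The ranges over mice of neighbours in this order did not overlap except for Nfib and Ncam2, where Nfib was the higher in 8 of 9 mice. All values below are levels in CPM, which are compared between mice and not between genes.

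Nqo1 (chr8:107388225-107403206, minus strand) was at 121.0, 140.3 and 143.2 CPM in the wild-type mice. It was at 140.1, 161.2 and 152.1 CPM in the Ms4a6c knockout mice. In the Ms4a cluster knockout mice it was at 127.7, 59.6 and 160.1 CPM. A single mouse, Ms4a cluster knockout 2, thus lay far under the others, and the highest level was 2.70 times the lowest. The other 8 mice lay between 121.0 and 161.2 CPM, and all 3 groups overlapped.

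Acsm4 (chr7:119690026-119714565, plus strand) gave a similar picture at a higher level. Wild-type mice had 344.5, 349.0 and 358.2 CPM. The Ms4a6c knockout mice had 473.4, 457.2 and 436.4 CPM, all above every wild-type mouse. Ms4a cluster knockout mice spanned the whole range, at 340.6, 239.6 and 484.7 CPM, so the lowest and the highest mouse of the series were both in this group. Its mouse 2 was again the lowest, and the wild-type mice were the tightest group, at 351 ± 6.98 CPM (SD, n = 3). Groups of 3 against 3 mice that do not overlap have an exact permutation p of 0.1. The share of all genes that separate in this way is not given here. Such separations, here and below, are therefore not read as a trait of the zone genes.

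Ncam2 (chr16:81200697-81626828, plus strand) was much steadier. It was at 76.3, 82.2 and 77.7 CPM in wild-type mice and at 82.1, 75.2 and 68.2 CPM in Ms4a6c knockout mice. In Ms4a cluster knockout mice it was at 75.4, 69.0 and 72.0 CPM, each under every wild-type mouse. From the lowest to the highest mouse Ncam2 differed 1.20-fold, against 2.02-fold for Acsm4.

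The spread among mice of 1 genotype was larger for the dorsal genes than for Ncam2, in large part through Ms4a cluster knockout 2. The within-genotype SD of log2 CPM was 0.44 for Nqo1, larger than that of 97.9% of the 10795 genes with a mean of at least 10 CPM, and 0.30 for Acsm4, larger than that of 94.8%. That of Ncam2 was 0.09, larger than 37.2% of these genes. Among the zone factors, the SD was 0.20 for Nfia (86.6%), 0.13 for Nfib (62.3%) and 0.11 for Nfix (48.2%). Without Ms4a cluster knockout 2, the SD was 0.15 for Nqo1 (larger than 78.4% of the genes), 0.17 for Acsm4 (83.7%) and 0.09 for Ncam2 (49.4%). Without both gland-rich libraries it was 0.14 for Nqo1, 0.19 for Acsm4, 0.10 for Ncam2, 0.13 for Nfia, 0.13 for Nfib and 0.05 for Nfix.

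**Figure D1:**
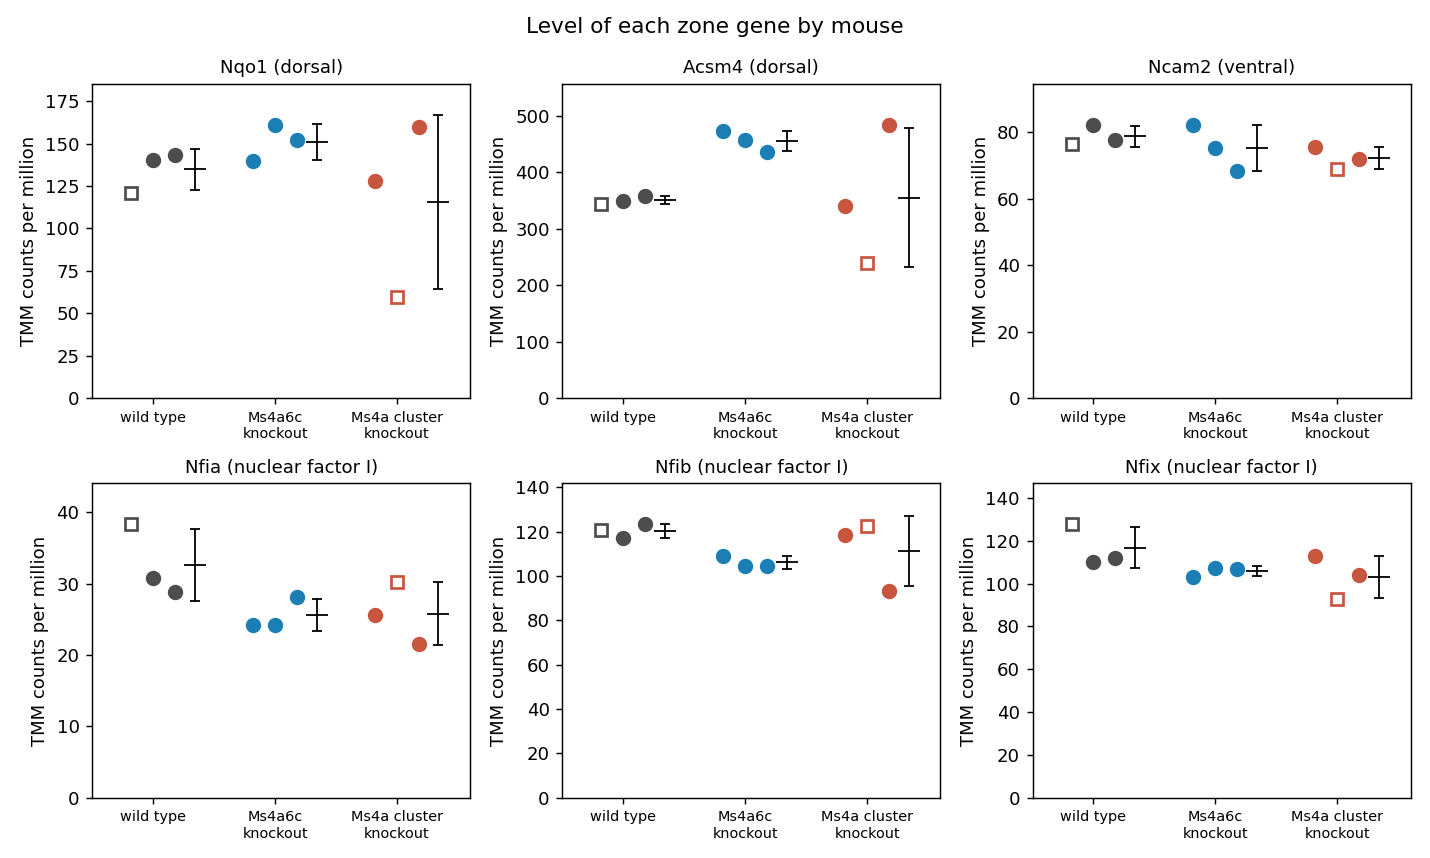
Level of each zone gene in every mouse, in CPM scaled by trimmed means (TMM), with the genotype on the x axis; open squares are the gland-rich libraries wild type 1 and Ms4a cluster knockout 2, and the black bar beside each group is its mean ± SD (n = 3). Nqo1 and Acsm4 are lowest in Ms4a cluster knockout 2, at 59.6 and 239.6, while Ncam2 stays between 68.2 and 82.2.

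To read the zones without any scaling of the libraries, a dorsal index was formed in each mouse as the mean of log2 Nqo1 and log2 Acsm4 counts minus log2 Ncam2 counts, with 0.5 added to each count. A higher index means more dorsal transcript for each Ncam2 transcript. The wild-type mice lay close together, at 1.42, 1.43 and 1.54. Ms4a6c knockout mice lay higher, at 1.65, 1.85 and 1.92, with no overlap. The Ms4a cluster knockout mice were at 1.47, 0.79 and 1.95, which are a value near the wild type, the lowest of all 9 and the highest of all 9. As a ratio, dorsal counts (geometric mean) per Ncam2 count ran from 1.73 in Ms4a cluster knockout 2 to 3.87 in Ms4a cluster knockout 3.

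These differences between mice were larger than counting error. Nqo1 and Acsm4 made up 81.3% of the summed counts of the 3 genes in Ms4a cluster knockout 2 (95% Wilson interval 80.0% to 82.5%) and 90.0% in Ms4a cluster knockout 3 (89.4% to 90.4%). In wild-type mice this share was 85.9%, 85.6% and 86.6%, with intervals that all overlapped. Such intervals cover counting error only.

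Between genotypes, the dorsal index was 1.46 ± 0.07 in wild-type mice, 1.81 ± 0.14 in Ms4a6c knockout mice and 1.40 ± 0.58 in Ms4a cluster knockout mice (mean ± SD, n = 3 each). Ms4a6c knockout mice were higher than wild-type mice by 0.34 without overlap, and the two-sided exact permutation test gave the smallest p that 3 against 3 mice allow (p = 0.1). The cluster knockout differed from the wild type by -0.06 (exact permutation p = 0.9) and from the Ms4a6c knockout by -0.40 (exact permutation p = 0.4), both within the spread of its own mice. Without the gland-rich libraries these became 0.22 and -0.10, and the difference between Ms4a6c knockout and wild type became 0.32. Leaving out Ms4a cluster knockout 2 alone turned the sign of the cluster knockout against the wild type, to 0.25. Both comparisons with the wild type used the same 3 wild-type mice.

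The mice with high Ddx3y had dorsal indices of 1.42, 1.85, 1.92 and 1.95, and the 5 with high Xist ran from 0.79 to 1.65. The part of sex in these differences was not tested.

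Class I odorant receptors, which the choice of genes did not use, gave a second reading of the dorsal share. Of 1408 odorant receptor genes, 156 were of class I and 1249 of class II, by receptor family number where a usable one was listed. Genes without one were put in class II if they lay off chromosome 7. On chromosome 7 they took the class that both neighbours shared, which added 10 class I genes. Class I genes took 6.41%, 6.66% and 7.05% of odorant receptor counts in wild-type mice. They took 8.23%, 8.13% and 8.09% in Ms4a6c knockout mice, and 6.66%, 4.99% and 8.88% in Ms4a cluster knockout mice. The lowest and the highest mouse were thus the same as for the dorsal index, with 95% Wilson intervals of 4.82% to 5.17% and 8.73% to 9.04%.

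The class I share was 1.45 percentage points higher in Ms4a6c knockout than in wild-type mice, 8.15% ± 0.0744 against 6.70% ± 0.326 (SD, n = 3 each), with no overlap and the smallest p possible (two-sided exact permutation test, p = 0.1). Without the gland-rich wild-type library the difference was 1.298. The cluster knockout, at 6.84% ± 1.95, differed from the wild type by 0.140 percentage points (exact permutation p = 0.8) and from the Ms4a6c knockout by -1.31 (exact permutation p = 0.4). Without Ms4a cluster knockout 2 these were 1.07 and -0.382, and without wild type 1 the first was -0.00977. With both gland-rich libraries left out, the remaining wild-type mice were at 6.66% and 7.05%, and the remaining cluster knockout mice at 6.66% and 8.88%. Single class I genes did not pass the test in any comparison (0 of 121 tested), where 0.0258%, 0.435% and 0.443% of all genes passed in the order cluster knockout against wild type, Ms4a6c knockout against wild type and between the knockouts. Of 987 class II genes, 0 passed in the first, 2 higher and 1 lower in the second, and 1 higher and 3 lower in the last. At such shares a count of 0 among 121 genes is near the background. The median log2 fold change of the class I genes between Ms4a6c knockout and wild type was 0.29, with 101 positive and 20 negative, against a median of 0.05 over 987 class II genes. In the cluster knockout against the wild type the class I median was -0.02 and that of class II -0.09, and against the Ms4a6c knockout they were -0.33 and -0.16. Related receptors share sequence, so the division of reads among them by the counting model is less certain than for the zone genes.

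**Figure D2:**
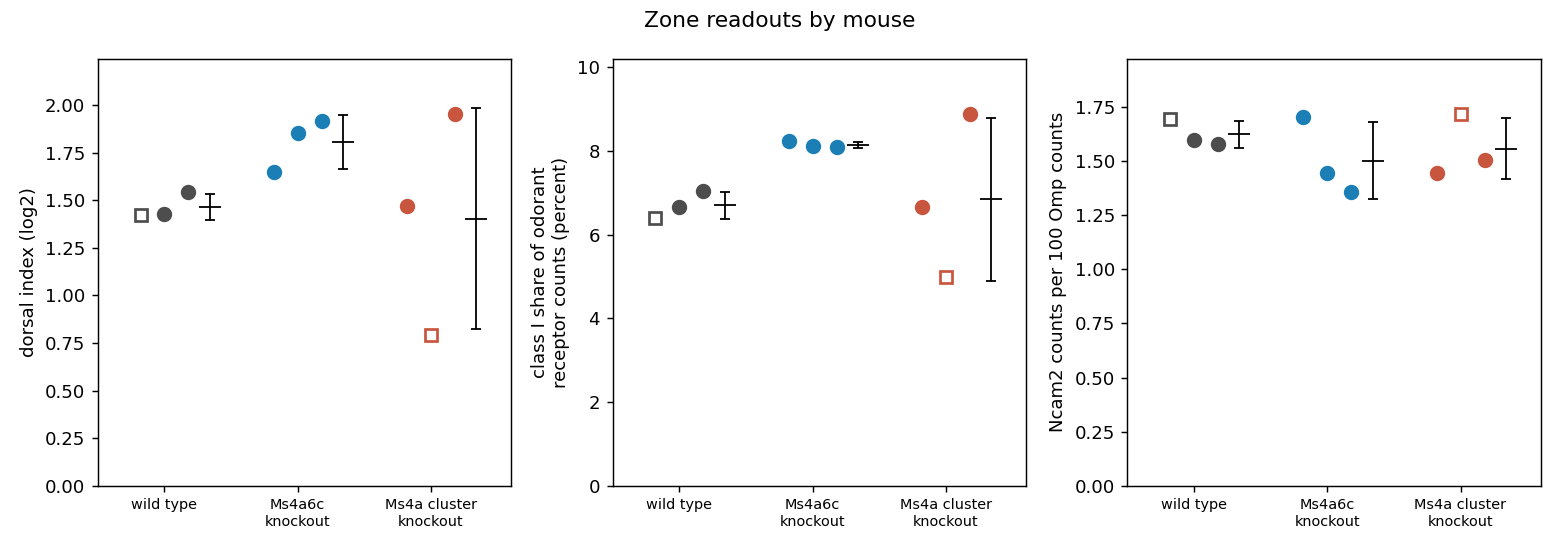
Dorsal index (log2), class I share of odorant receptor counts (percent) and Ncam2 counts per 100 Omp counts in each mouse, by genotype; open squares are the gland-rich libraries and black bars are mean ± SD (n = 3). The Ms4a cluster knockout mice hold both the lowest and the highest value of the first 2 measures, 0.79 and 1.95 for the index and 4.99% and 8.88% for the class I share.

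Across the 9 mice, the dorsal index and the class I share were correlated. Pearson's r was 0.954 (exact permutation p = 0.000138, 0.000965 adjusted over the 7 relations computed) and Spearman's rho was 0.933 (exact permutation p = 0.00075). Ms4a cluster knockout 2 and 3 lay farthest from the median index, and without them r was 0.893 (exact permutation p = 0.00873, adjusted 0.0611). Without the gland-rich libraries r was 0.908 over 7 mice (exact permutation p = 0.0167, adjusted 0.106), and rho was 0.857. After each genotype was centred on its mean, r was 0.947 (exact permutation over all 9 mice p = 0.0130, adjusted 0.0488). That p shuffles centred values between genotypes of unequal spread (SD of the index 0.07, 0.14 and 0.58). It therefore does not measure the relation within genotypes, and no pass is read from it. The order was the same in wild-type and in Ms4a cluster knockout mice, and opposite within the narrow range of the Ms4a6c knockout mice, where the index of 1.65 went with the highest share, 8.23%, and that of 1.92 with the lowest, 8.09%. The gland-rich libraries number only 2 and allow no value of their own.

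Nqo1 and Acsm4 were correlated as well. Pearson's r of their log2 CPM was 0.880 over 9 mice (exact permutation p = 0.00191, adjusted 0.00669), and rho was 0.783 (exact permutation p = 0.0172, adjusted 0.0603). The 2 mice farthest from the median were the gland-rich ones, and without them r was 0.734 and no longer passed (exact permutation p = 0.0724). Its adjusted p was 0.253 where each relation left out its own 2 farthest mice and 0.127 where all left out the gland-rich ones. The relation did not pass either without Ms4a cluster knockout 2 alone, where r was 0.769 (exact permutation p = 0.0359, adjusted 0.0747). The pair was not low to the same degree in that mouse, where Acsm4 had 4.02 counts for each Nqo1 count, against 2.49 to 3.38 in the other 8.

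No relation was detected between the mean of the dorsal genes and Ncam2 on the scaled level, with r = 0.300 (exact permutation p = 0.459, adjusted 0.573) and rho = -0.183. The sign of r turned without the gland-rich libraries, to -0.401, and relative to Omp, to -0.402, while CPM without TMM scaling gave 0.895 (adjusted p = 0.0186 by exact permutation).

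**Figure D3:**
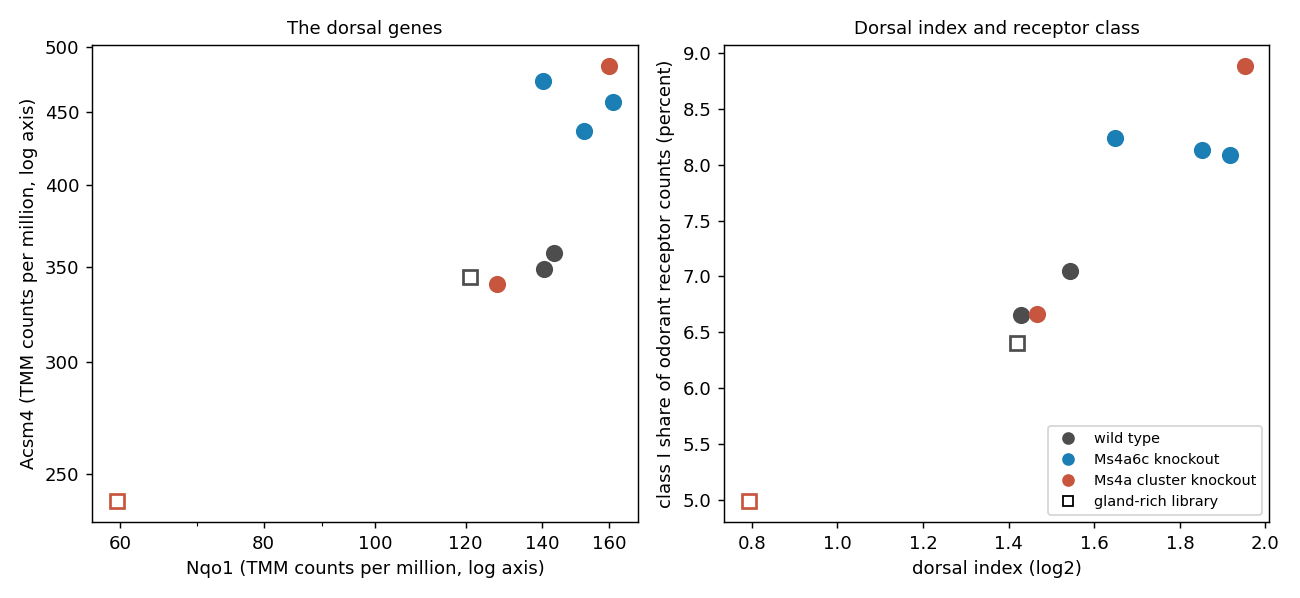
Acsm4 against Nqo1 (both in TMM-scaled CPM on log axes) and class I share of odorant receptor counts (percent) against the dorsal index (log2), 1 point per mouse, coloured by genotype, with open squares for the gland-rich libraries. The 9 mice line up in the second panel from Ms4a cluster knockout 2 (0.79, 4.99%) to Ms4a cluster knockout 3 (1.95, 8.88%), with r = 0.954.

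Receptor genes were then set against the dorsal index one at a time, as a description without a test, since they share libraries. Among 105 class I genes with a mean of at least 1 CPM, the median r with the index over 9 mice was 0.757, and 103 (98.1%) were positive. Among 801 class II genes the median was 0.212 and 65.3% were positive. Without the gland-rich libraries the medians were 0.490 for class I, with 85.7% positive, and -0.0145 for class II, with 48.7% positive. The separation of the classes was therefore still seen in 7 mice, with smaller values.

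**Figure D4:**
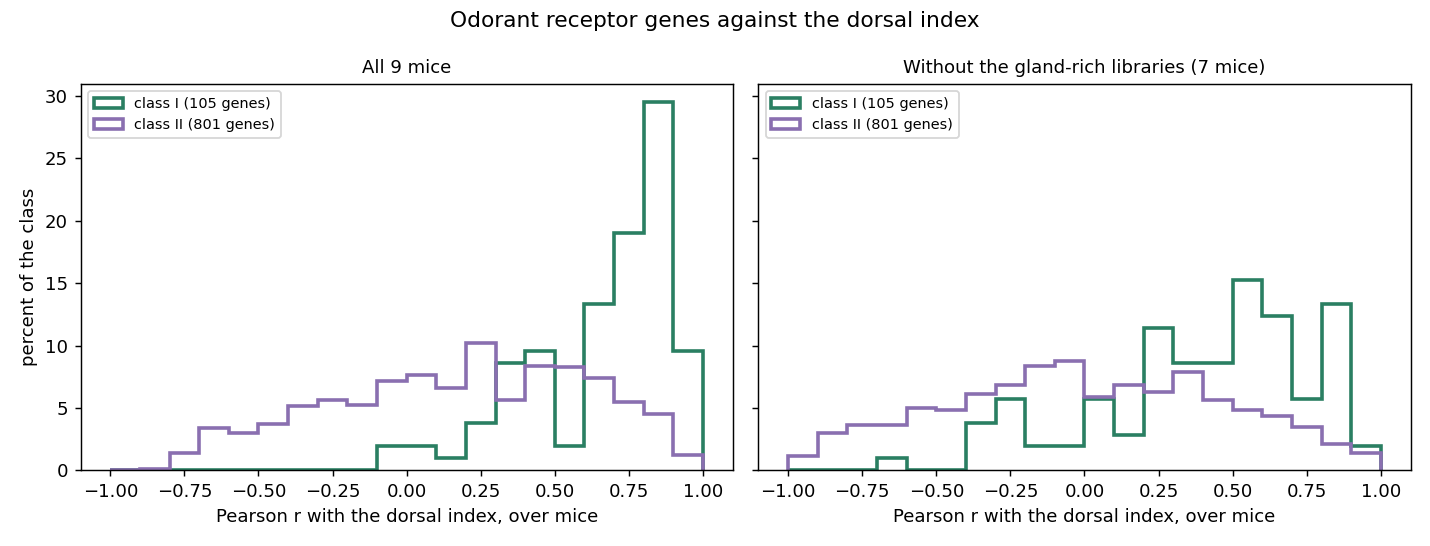
Distribution of Pearson's r between the level of each odorant receptor gene and the dorsal index, as the percent of each class, over 9 mice and over the 7 without the gland-rich libraries. Class I genes (105) lie to the right of class II genes (801) in both, with medians of 0.757 against 0.212 and of 0.490 against -0.0145.

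Other dorsal neurons gave a less even account. Trace amine-associated receptors took 0.229% to 0.334% of all olfactory receptor counts, and the mouse with the lowest dorsal index was at 0.302%, within the range of the others. The mouse with the highest index, Ms4a cluster knockout 3, was lower, at 0.267%. These 2 mice thus stood in the order opposite to that of the index, with 95% Wilson intervals that overlapped. The dorsal class II receptors Olfr16, Olfr73 and Olfr160 made up 6.36% of the counts of a set that also held the ventral receptors Olfr17, Olfr1507 and Olfr1509 in Ms4a cluster knockout 2 (95% Wilson interval 5.26% to 7.68%). They made up 11.7% in Ms4a cluster knockout 3 (10.7% to 12.9%) and 6.41% to 9.19% in the other 7 mice, so the extremes were the same mice again, while the lowest intervals overlapped. This share leans on Olfr1507, which held most of the ventral counts and was itself lowest in Ms4a cluster knockout 3 (112 CPM). Olfr16 was highest in wild type 3 (7.74 CPM), Olfr73 in Ms4a6c knockout 1 (4.51) and Olfr160 in Ms4a cluster knockout 3 (8.67). Each of these dorsal receptors was lowest in Ms4a cluster knockout 2. The dorsal receptor Olfr151 had too few counts to be tested.

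Relative to Omp, which reads the genes against a transcript of mature neurons, Ms4a cluster knockout 2 and 3 were again the lowest and highest mice for both dorsal genes. Nqo1 counts per 100 Omp counts were 2.69, 2.72 and 2.91 in wild type, 2.90, 3.09 and 3.03 in Ms4a6c knockout and 2.45, 1.48 and 3.35 in Ms4a cluster knockout mice. Acsm4 counts per 100 Omp counts were 7.66, 6.77 and 7.29 in wild type, 9.81, 8.77 and 8.70 in Ms4a6c knockout and 6.53, 5.96 and 10.1 in Ms4a cluster knockout mice. Ncam2 counts per 100 Omp counts were 1.69, 1.60 and 1.58, then 1.70, 1.44 and 1.36, then 1.45, 1.72 and 1.51, in the same order of groups. On this scale the Ncam2 value of Ms4a cluster knockout 2, the mouse with the least Nqo1 and Acsm4, lay beside those of Ms4a6c knockout 1 and wild type 1 at the top of the range, and these 3 differed by less than counting error.

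The means of the 3 zone factors were lower in both knockouts than in the wild type, and none of these differences passed the test given further on. Nfia (chr4:97772734-98118874, plus strand) was at 38.3, 30.8 and 28.8 CPM in wild-type mice. It was at 24.3, 24.3 and 28.2 CPM in Ms4a6c knockout mice, each under every wild-type mouse, and at 25.6, 30.3 and 21.6 CPM in Ms4a cluster knockout mice. Its highest value came from the gland-rich wild type 1.

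Nfib (chr4:82290173-82705750, minus strand) was at 120.9, 117.0 and 123.3 CPM in wild-type mice. The Ms4a6c knockout mice lay lower without overlap, at 109.2, 104.6 and 104.5 CPM. Ms4a cluster knockout mice had 118.4, 122.4 and 93.2 CPM, the last from the mouse with the highest dorsal index.

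Nfix (chr8:84699876-84800344, minus strand) was at 127.6, 110.2 and 112.1 CPM in wild-type mice and at 103.1, 107.4 and 106.7 CPM in Ms4a6c knockout mice, again without overlap. In Ms4a cluster knockout mice it was at 112.6, 93.0 and 103.9 CPM. The separations of Nfia, Nfib and Nfix, like that of Acsm4, stand without the share over all genes. Nfic, the other gene of the family, was at 71.1 to 82.1 CPM over all mice, and the groups overlapped in all 3 comparisons.

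Nfia and Nfib gave r = 0.731, which did not pass after adjustment (exact permutation p = 0.0227, adjusted 0.0529). It passed by library size without TMM scaling, relative to Omp, and without wild type 1 or Ms4a cluster knockout 1 (adjusted 0.0218, 0.00702, 0.0499 and 0.0408 by exact permutation). Nfia with Nfix gave r = 0.498 (exact permutation p = 0.161) and Nfib with Nfix 0.245 (exact permutation p = 0.516), and without the gland-rich libraries they were 0.637 and 0.805 (adjusted 0.18 and 0.106 by exact permutation). Nfia with Nfix passed by library size, relative to Omp and without Ms4a cluster knockout 2 (adjusted 0.0207, 0.00702 and 0.0282 by exact permutation). Nfib with Nfix passed by library size (adjusted 0.00189 by exact permutation). By library size all 7 relations passed (adjusted 0.000965 to 0.0218 by exact permutation), so a pass on that scale does not set any pair apart. The mean of the 3 factors and Ncam2 gave r = 0.224 (exact permutation p = 0.573), and its sign and call depended on the processing: r was 0.904 by library size (adjusted 0.00367 by exact permutation) and -0.307 centred on genotype (adjusted 0.667). As a description without a test, Acsm4 and Nfib ran opposite to each other, with r = -0.799 over 9 mice and -0.863 over 7, and Acsm4 and Nfix gave 0.143 over 9 mice and -0.940 over the 7 that were not gland-rich.

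To test the genes across genotypes, all 23225 genes were fitted with edgeR's quasi-likelihood test and p-values were adjusted by Benjamini-Hochberg over all of them. For the Ms4a cluster knockout against the wild type, 0 of the 6 zone genes passed an adjusted p under 0.05, where 0.0258% of all tested genes did, and Nfia alone had an unadjusted p under 0.05, as 4.93% of all genes did. The log2 fold changes were -0.21 ± 0.27 (SE) for Nqo1, 0.02 ± 0.19 for Acsm4 and -0.13 ± 0.07 for Ncam2. Those of the zone factors were -0.34 ± 0.14 for Nfia (edgeR adjusted p = 0.968), -0.11 ± 0.09 for Nfib and -0.18 ± 0.08 for Nfix. Single libraries moved them: without wild type 1 Nfia was at -0.22 and Nfix at -0.11, without Ms4a cluster knockout 2 Nfix was at -0.11 and Nfib at -0.19, and without Ms4a cluster knockout 3 Nfia was at -0.23 and Nfib at -0.00051. The 95% interval for Nqo1, from -0.81 to 0.38, was wide enough to hold a sizeable change in either direction. Without the gland-rich libraries the Nqo1 value was 0.02 ± 0.10 and the Acsm4 value 0.22 ± 0.13.

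Between Ms4a6c knockout and wild-type mice, 0 of 6 passed as well, against 0.435% of all genes, and Nfia alone had an unadjusted p under 0.05, as 10.5% of all genes did. Acsm4 gave the most positive log2 fold change, 0.38 ± 0.19, with an edgeR p of 0.0784 (adjusted 0.528) although the groups did not overlap. In a fit of these 2 genotypes alone, which leaves out the wide cluster knockout group, the same difference of 0.38 had an SE of 0.06 and passed (edgeR adjusted p = 0.041). Over 17 alternatives in all, the edgeR or DESeq2 adjusted p of Acsm4 ran from 0.041 to 0.766 and its log2 fold change from 0.35 to 0.41. Over the same alternatives, 59 to 350 of all genes were called. Nqo1 gave 0.16 ± 0.27 and Ncam2 -0.07 ± 0.07. The zone factors gave -0.35 ± 0.14 for Nfia (edgeR adjusted p = 0.402), -0.18 ± 0.09 for Nfib and -0.14 ± 0.08 for Nfix. Without the gland-rich wild type 1 and its counterpart in the other knockout, Nfia was at -0.22 ± 0.10 and Nfix at -0.07 ± 0.05.

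Between the knockouts, 0 of 6 passed, against 0.443% of all genes, and none had an unadjusted p under 0.05, as 9.38% of all genes did. Nqo1 was at -0.38 ± 0.27 and Acsm4 at -0.36 ± 0.19 on the log2 scale in Ms4a cluster knockout relative to Ms4a6c knockout mice, and Ncam2 at -0.06 ± 0.07. Without the gland-rich libraries Nqo1 was at -0.07 ± 0.10 and Acsm4 at -0.15 ± 0.12. The zone factors lay between -0.03 and 0.07.

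**Figure D5:**
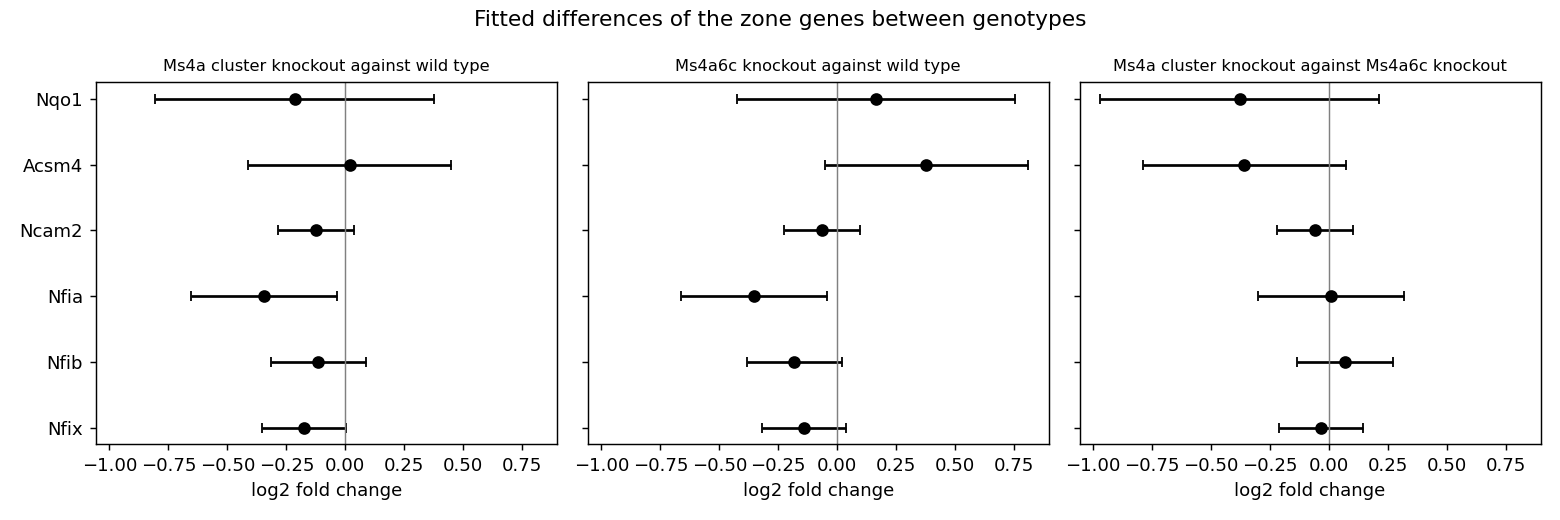
Log2 fold change of each zone gene in the 3 comparisons, from edgeR's fit of all 9 mice, with 95% intervals as bars and a grey line at 0. Intervals are widest for Nqo1 and Acsm4, which are lowest in Ms4a cluster knockout 2 (without the gland-rich libraries the SE of Nqo1 in the first comparison is 0.10 in place of 0.27), and only the intervals of Nfia in the comparisons with the wild type leave out 0, at unadjusted p-values of 0.0328 and 0.029.

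Neighbouring lists of zone and pathway genes were read in the same fit. The graded axon guidance genes Robo2 and Sema3f, which are strongest in dorsal neurons, and Nrp2, which is strongest in ventral ones, gave 0 of 3 called in every comparison. Robo2, an axon guidance receptor, was at 0.20 ± 0.11 in Ms4a6c knockout against wild type and at -0.39 ± 0.11 in cluster against Ms4a6c knockout (edgeR adjusted p = 0.274). Nrp2, a semaphorin receptor, was at -0.26 ± 0.11 and 0.25 ± 0.11 in the same comparisons (edgeR adjusted p = 0.442 and 0.507). Sult1c1, a sulfotransferase listed here as a zonal gene of supporting cells, was at 613.7, 744.4 and 601.6 CPM in wild type, 922.2, 869.4 and 823.2 CPM in Ms4a6c knockout and 530.7, 394.6 and 727.3 CPM in Ms4a cluster knockout mice. Its log2 fold change was 0.42 ± 0.19 in Ms4a6c knockout against wild type (edgeR adjusted p = 0.478) and -0.66 ± 0.19 between the knockouts (edgeR adjusted p = 0.279).

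Nqo1 is a classical target of the transcription factor Nrf2, so 15 genes of that pathway, Nqo1 included, were set beside it. None passed in any comparison, and their median log2 fold changes were 0.00, 0.07 and -0.07 in the order of comparisons above, against medians over all tested genes of 0.01, -0.00164 and 0.01. Hmox1, the heme oxygenase, was the largest in Ms4a6c knockout against wild type, at 0.60 ± 0.11 (edgeR adjusted p = 0.0627). Retinoic acid genes, a pathway with zonal enzymes, gave 0 of 8 called in every comparison, with medians of 0.03, 0.17 and -0.12. Dhrs3, a retinaldehyde reductase, was at 0.29 ± 0.07 in Ms4a6c knockout against wild type (edgeR adjusted p = 0.168). Of 14 trace amine-associated receptors, 0 passed in any comparison, with medians of -0.27, 0.06 and -0.27. Other members of the families of Acsm4 and Ncam2 did not pass either: Acsm3 was at 0.06, 0.15 and -0.09 and Ncam1 at -0.13, -0.02 and -0.11.

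Markers of other cells moved with some of these differences, and their part in them was not tested. The 5 supporting cell genes summed to 12696 to 13524 CPM in Ms4a6c knockout mice, above the 10314 to 11409 CPM of wild-type mice, with 0 of 5 called. The 4 blood genes summed to 804 to 2310.2 CPM in Ms4a6c knockout mice and to 655 to 900 CPM in wild-type mice, with a median log2 fold change of 1.21 and 0 of 4 called. The 6 mesenchyme genes gave a median of -0.32 there, with 0 of 6 called. Of all genes, 0.435% were called in this comparison. An unadjusted edgeR p under 0.05 was found for 3 of 5 supporting cell, 4 of 4 blood and 4 of 6 mesenchyme genes. Of all genes, 10.5% had such a p. The 11 mature neuron genes gave a median of 0.07 with 1 called: Gng13, a G protein subunit of olfactory transduction, fell to 193 ± 12.8 CPM from 359 ± 11.8 CPM in the wild type (SD, n = 3 each; edgeR adjusted p = 0.00121). For the lists of immature neurons and progenitors, basal cells, ciliated respiratory cells, glia and nasal gland, 0 genes passed in any comparison. The nasal gland genes still differed widely. Their median log2 fold change was -3.08 in Ms4a6c knockout against wild type (7 of 8 negative) and 3.56 between the knockouts (7 of 8 positive). Of the 8, 3 and 4 had an unadjusted edgeR p under 0.05, as 10.5% and 9.38% of all genes did. Both comparisons hold a gland-rich library.

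The genes whose log2 CPM was most like each zone gene over the 9 mice, of 10777 genes with a mean of at least 10 CPM, are given as a description. Among the genes most like Nqo1 were Ptger3 (r = 0.976) and Kif13a (0.970), and without the gland-rich libraries these were at 0.497 and 0.874. Acsm4 was most like Slc25a35 (0.986), Gpr162 (0.982) and Chil6 (0.976), and these were at 0.974, 0.967 and 0.952 over the 7 mice. Ncam2 was most like Olfr1193 (0.942), Top2b (0.932) and Map3k19 (0.926). Nfia was most like Pgm2 (0.939), Kcmf1 (0.934) and Rer1 (0.929), Nfib like Gcnt1 (0.944), Marveld1 (0.934) and Lamtor2 (0.927), and Nfix like Ercc5 (0.915), D8Ertd738e (0.906) and Rbm6 (0.880). Over the 7 mice the genes named for Nfix were at 0.512, 0.874 and 0.152. Those named for Ncam2 were at 0.927, 0.919 and 0.936 there. Those for Nfia were at 0.863, 0.857 and 0.846, and those for Nfib at 0.949, 0.913 and 0.908. The dorsal index was most like Kif13a (0.978), Crym (0.973) and Olfr598 (0.968), the last a class I receptor of chromosome 7. Over the 7 mice these were at 0.959, 0.915 and 0.909.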

How the data were processed

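RNA from the main olfactory epithelium of 9 mice, 3 per genotype, was made into directional poly-A libraries and sequenced as paired ends. The authors aligned reads to mm10 with STAR 2.6.1 and deposited gene-level expected counts from RSEM 1.3.1, which divide ambiguous reads among genes; the submitters' processing notes also list DESeq2 1.30.1 and R 4.0.0. The deposited expected counts were rounded here, genes with at least 10 counts over the 9 mice were kept (23225 of 55291), and edgeR 4.0.16 (R 4.3.3) was run with TMM scaling and its quasi-likelihood test in one model of 3 genotypes, with Benjamini-Hochberg adjustment and a threshold of 0.05. DESeq2 1.42.0 was an alternative. On simulated counts for 22817 genes in the cluster knockout against wild type comparison, 99 of 100 4-fold and 79 of 100 2-fold changes were called, with 7 unchanged genes. The simulation gave each gene the spread fitted for its level and held no gland-rich libraries. Nqo1 and Acsm4 varied more than most genes, so these rates are not read as theirs. Zone values per mouse were compared with two-sided exact permutation tests (scipy 1.17.1), and 7 correlations over mice were adjusted together. Members and gene lists were chosen with earlier results of these data known. The named genes are the 6 members, the listed genes, and the 3 genes most like each member and the index. One result under this rule is not reported here. Lcn14, on the nasal gland list, was not matched in the table. Gene positions came from GENCODE M21 and promoters from RefSeq, both on GRCm38, the build of the files; 5 of the 6 members matched a promoter, and Nfib did not. The labels number the mice of each genotype, but same-numbered mice did not deviate together (r from -0.535 to 0.107 over 9 pairs), so the fit has no block. Whether mice were littermates across lines is not given in the sources used here. The p-values set each difference or correlation against the variation between these samples.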

Additional observations from a re-analysis of the deposited data

How the results depend on the processing

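Of the 6 zone genes, 0 passed in every comparison under all alternatives run except 1: in the fit of Ms4a6c knockout and wild type alone, 1 passed, Acsm4 (0.38, edgeR adjusted p = 0.041). The exact tests of the dorsal index and class I share could not pass 0.05 in any setting, so they say nothing of stability. Same-numbered mice did not deviate together, so the replicate block is given only here: it turned Acsm4 in cluster knockout against wild type to -0.0179 and Nfia between the knockouts to -4.8e-05, and gave correlations of -0.926 for the mean of the nuclear factor I genes with Ncam2 (exact permutation, adjusted 0.00274, opposite to the call by library size) and -0.389 for Nfib with Nfix. Leaving out 1 mouse at a time gave log2 fold changes of -0.518 to 0.0928 for Nqo1 and -0.27 to 0.23 for Acsm4 in cluster knockout against wild type, and between the knockouts of -0.125 to 0.00864 for Ncam2, -0.12 to 0.12 for Nfia, -0.0044 to 0.18 for Nfib and -0.102 to 0.0336 for Nfix. Without the gland-rich libraries, an alternative chosen after seeing the data, Nqo1 in cluster knockout against wild type was 0.0209, and between the knockouts Nfia was -0.12, Nfib -0.0066 and Nfix 0.0316; a nasal gland covariate gave Nfia -0.0482. For Nqo1 with Acsm4, rho was 0.783, r was 0.734 without the 2 farthest or the gland-rich mice, and 0.769 to 0.913 leaving out 1 mouse. For the dorsal mean with Ncam2, rho was -0.183 and r was 0.895 by library size, -0.402 relative to Omp, -0.215 without the 2 farthest mice, -0.401 without the gland-rich ones and -0.352 to 0.515 leaving out 1. For the nuclear factor I mean with Ncam2, r was -0.307 centred on genotype and 0.904 by library size. For Nfia with Nfib it was 0.747 by library size, 0.856 relative to Omp and 0.578 to 0.797 leaving out 1. For Nfia with Nfix it was 0.726, 0.832 and -0.0594 to 0.869 in the same order, and -0.197 without the 2 farthest mice. For Nfib with Nfix it was -0.149 centred and 0.857 by library size. The index with class I share gave 0.893 without the 2 farthest mice and 0.908 without the gland-rich ones. The causes of these changes were not tested. Correlations centred on genotype or with a replicate block were permuted over all 9 mice. Their p-values therefore do not measure relations within genotypes or blocks. Calls over all genes ranged over the alternatives from 2 to 18 (main 6), 59 to 350 (main 101) and 66 to 271 (main 103) in cluster knockout against wild type, Ms4a6c knockout against wild type and between the knockouts; DESeq2 gave 18, 345 and 271, and the fit without the gland-rich libraries 8, 350 and 147. The SE of Nqo1 was 0.27 in the fit of 9 mice and 0.10 in cluster knockout against wild type without the gland-rich libraries.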
